A study of Mus musculus with 6 samples.

Results

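In inguinal white adipose tissue (IngWAT) of mice lacking *Hdac3* in adipose tissues, 159 protein-coding genes that were counted in every control pool stayed under 1 cpm in every knockout pool. A gene was included when its level was 2 cpm or more in all 3 control pools and under 1 cpm in all 3 knockout pools, where cpm is the count divided by the counts of all genes outside the mitochondrial genome, times 1000000 (counts per 1000000 counts). The 159 genes were 1.41% of the 11262 protein-coding genes that met the control part of the rule, which are called eligible genes here, and the files hold counts for 46517 genes. Collagens, semaphorins and plexins were left out, which removed 4 genes that met both thresholds (*Sema6b*, *Sema4g*, *Sema6c* and *Col16a1*). The genes were chosen by their measured levels in both genotypes, so the difference between genotypes is described below and not tested, and their levels are no evidence of it. The mirror rule, under 1 cpm in every control and 2 cpm or more in every knockout pool, found 9 genes.

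RNA-seq was done on 3 pools of *Hdac3* floxed controls, in which the gene is flanked by loxP sites, and on 3 pools of H3atKO mice, which carry the same floxed allele and the transgene B6:FVB-Tg(Adipoq-cre)1Evdr/J. All mice were given as C57Bl6, 5 to 9 months old and fed chow in standard housing, and each pool mixed RNA of 2/3 mice of 1 genotype. The Adipoq promoter is active in adipocytes, so other cells of the tissue keep a working allele. The labels give the same replicate numbers in both genotypes and do not say what a number stands for.

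HDAC3 is a histone deacetylase that works within the NCoR and SMRT corepressor complexes, which nuclear receptors and other transcription factors bring to enhancers and promoters. It is best known for holding genes down, so its loss is usually read through genes that go up. In adipose tissue it is studied for its part in lipid metabolism and in the thermogenic programme.

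Gene counts summed to between 23865507 and 35200685 per pool. The mitochondrial genome took 6.92 to 12.9% of them in floxed and 26.9 to 35.3% in H3atKO pools, so that 26347776 to 32766423 counts were left outside it in floxed and 15444007 to 19297782 in H3atKO pools. *Hdac3* itself was counted at 95.8, 119 and 103 cpm in floxed pools and at 34.5, 21.5 and 13.2 cpm in H3atKO pools, which matches the labels. A level of 1 cpm stood for 15.4 to 19.3 counts in an H3atKO pool, and 3 counts, the upper limit that a count of 0 allows, stood for 0.155 to 0.194 cpm there. These limits cover counting error only.

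"Switched off" overstates what was counted. A count above 0 was found in all 3 H3atKO pools for 149 of the 159 genes, and 96 were above 3 counts in each of them. In H3atKO pools the median gene had 14, 10 and 5 counts (0.725, 0.520 and 0.324 cpm), against 273, 149 and 82 counts (8.33, 5.32 and 3.11 cpm) in floxed replicates 1, 2 and 3. Only *Chrna5* and *Mfap2* were at 3 counts or fewer in every H3atKO pool, and no gene was at 0 in all of them. The genes are therefore called low-in-H3atKO genes here. In whole tissue, fewer cells of a type and less RNA per cell cannot be told apart.

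**Figure D1:**
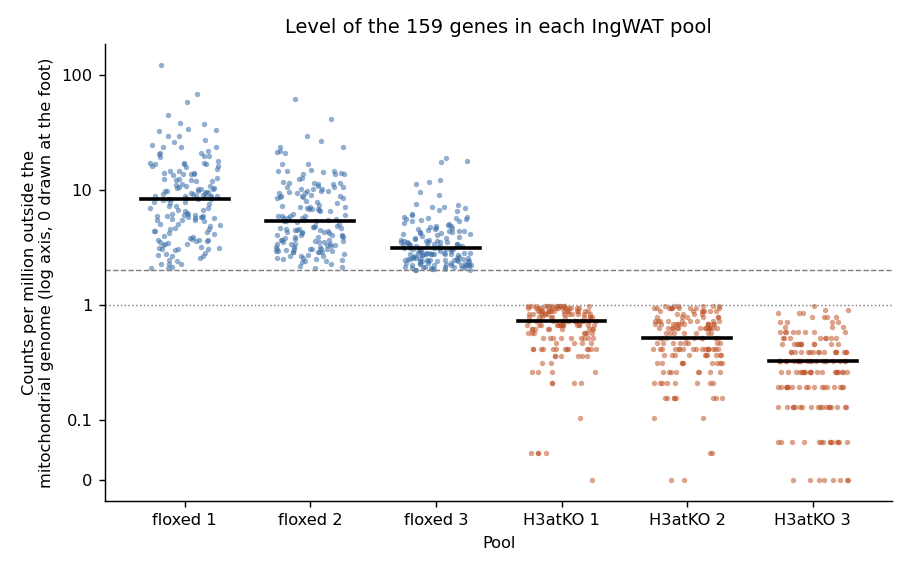
Level of each of the 159 genes in each of the 6 pools. Each point is 1 gene (cpm outside the mitochondrial genome, log axis, zeros drawn at the foot), black bars are medians, and the dashed and dotted lines mark the 2 and 1 cpm thresholds. The medians were 8.33, 5.32 and 3.11 cpm in floxed replicates 1, 2 and 3 and 0.725, 0.520 and 0.324 cpm in H3atKO replicates 1, 2 and 3.

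The space between the genotypes, which the rule set at 2-fold or more, varied widely. The lowest floxed level was 2.12 to 17.3 times the highest H3atKO level, with a median of 4.10, and it was 4 times or more in 84 genes. At the floxed threshold the genes just inside were *Gnb1l*, *Khk* and *Kdm8*, each with a lowest floxed level of 2.01 cpm, and *B4galt2* at 2.05 cpm, while *Pidd1* and *Gdpd3* at 1.97 cpm, *Galnt17* at 1.97 cpm and *Tha1* at 1.94 cpm fell just outside. At the H3atKO threshold *Btbd2*, *Clcn2*, *Pex5l* and *Itga11* had a highest level of 0.987 cpm, and *Upp1*, *Alox5*, *Mfsd10* and *Aprt* were just outside at 1.04 cpm.

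The transcripts of the 159 genes were rich in G and C, a property the rule did not use. The longest annotated transcript held a median of 56.8% G and C (quartiles 53.5 and 59.6%), against 49.2% (44.6 and 53.8%) in the 11103 eligible genes outside the set and 47.7% in the 9 genes of the mirror rule. The third base of a codon can often vary without changing the protein, and there the median was 69.5% against 59.8%. Over whole coding sequences it was 58.5% against 52.5%. To show this range, 90 coding bases are given below for the gene with the highest, the middle and the lowest GC content of the coding sequence, each the stretch closest to its gene's own content, 5′ to 3′ and in frame, with capitals for every G or C at the third base of a codon. The sequences are from GENCODE M21 transcripts (GRCm38).
*Dact3*, a Dishevelled-binding Wnt regulator: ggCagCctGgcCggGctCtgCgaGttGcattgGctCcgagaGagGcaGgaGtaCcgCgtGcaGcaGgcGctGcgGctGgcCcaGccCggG
*B4galt2*, a Golgi galactosyltransferase: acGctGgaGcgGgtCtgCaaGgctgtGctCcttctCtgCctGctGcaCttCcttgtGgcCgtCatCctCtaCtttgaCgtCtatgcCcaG
*Ncam2*, a neural cell adhesion molecule: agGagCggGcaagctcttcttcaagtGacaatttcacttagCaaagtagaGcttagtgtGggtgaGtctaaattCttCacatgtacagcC

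The *Dact3* stretch (coding bases 64 to 153, gene at chr7:16875317-16887462, plus strand) had G or C at the third base of 28 of 30 codons, and its whole coding sequence was 73.3% G and C. In *B4galt2* (coding bases 22 to 111, chr4:117869260-117883487, minus strand) the third base was G or C in 25 of 30 codons, with 58.6% over the coding sequence. *Ncam2* (coding bases 43 to 132, chr16:81200697-81626828, plus strand) had 11 of 30 such codons and 44.3%. All 3 stretches are exonic and coding.

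Of the 159 genes, 147 lay above the median GC content of eligible genes. When eligible genes were cut into 10 groups of equal size by GC content, the upper 3 groups held 124 (78.0%) of the set and the lower 5 held 12. In the lowest group 0.0887% of eligible genes met the H3atKO threshold, and in the highest 6.39% did. Across the same groups the median log2 fold change (H3atKO minus floxed) of all eligible genes went from 1.11 to -2.13, so levels shifted along GC content between the genotypes well beyond the set. Tallied alignments with more than 1 place also moved with genotype, at 28.3 to 35.2% of all counted and tallied alignments in floxed and 43.8 to 45.5% in H3atKO pools. Genotype and these shifts cannot be told apart in 6 libraries, and their part in the low levels of the 159 genes was not tested.

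**Figure D2:**
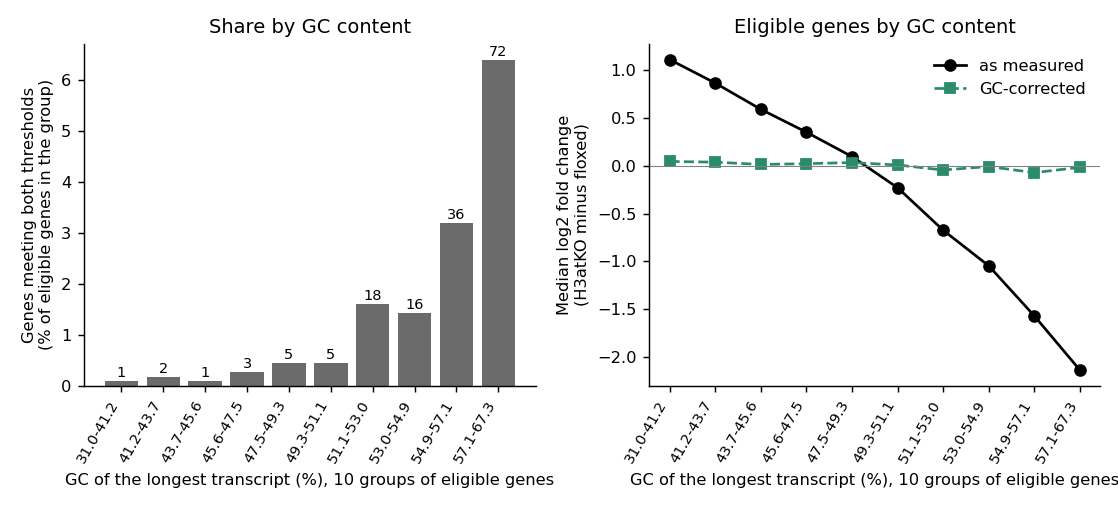
Eligible protein-coding genes in 10 groups of equal size by GC content (x axes, percent). Left, the percent of each group that met the H3atKO threshold, with the number of genes above each bar, from 1 in the lowest to 72 in the highest group. Right, the median log2 fold change (H3atKO minus floxed) of each group as measured (circles, 1.11 to -2.13) and after correction of each pool for GC content (squares, between -0.07 and 0.04).

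Low starting level was the other property the set shared, and here the rule did use it. Of eligible genes whose lowest floxed level was 2 to 4 cpm, 133 of 1090 (12.2%) were in the set, against 21 of 1465 (1.43%) at 4 to 8 cpm and 5 of 8707 (0.0574%) at 8 cpm or more. Within the lowest class the share was 2 of 266 in the lowest of 3 equal groups of eligible genes by GC content, 21 of 279 in the middle and 110 of 545 (20.2%) in the highest. All 5 genes above 8 cpm were in the highest group. The exons of the 159 genes covered a median of 3690 bases, against 4711 in the other eligible genes.

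The floxed pools were not alike in these genes. Floxed replicate 1 was the highest floxed pool for 114 genes and replicate 3 the lowest for 123, and 101 genes (63.5%) were in the order 1, 2, 3, an order found in 30.3% of the other eligible genes. The median log2 ratio of floxed replicate 1 to 3 was 1.3 in the set and -0.16 outside it. H3atKO pools also differed by replicate, with replicate 3 the lowest H3atKO pool for 123 genes. The median log2 ratio of H3atKO replicate 1 to 3 was 1.11 in the set and 0.34 in the other eligible genes. The coefficient of variation across floxed pools had a median of 49.1%, against 29.4%. The 114 genes highest in floxed replicate 1 had a median GC content of 57.8%, and the 21 highest in replicate 3 had 53.4%.

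Chromosome 7 carried 27 of the 159 genes, which was 3.23% of its 836 eligible genes, whose median GC content was 52.1%. The other autosomes held between 0.482 and 2.07%, and the X chromosome 1 of 367 eligible genes. Within 100 kb of each other lay 15 pairs of neighbouring genes of the set. *Duoxa1* and *Duox1*, which encode an NADPH oxidase and its maturation factor, were 1942 bases apart. *Ptov1*, *Med25*, *Cpt1c* and *Prr12* followed each other on chromosome 7, and *Dmkn* and *Krtdap*, both genes of the keratinocyte programme, were 6833 bases apart on the same chromosome.

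Promoters, unlike transcripts, were about as GC-rich as those of the other eligible genes. RefSeq windows of 300 bases around the start of each gene (GRCm38.p6) were matched for 130 of the 159 genes (81.8%), with a median GC content of 62.5%, and for 8906 other eligible genes (80.2%), with 61.0%. The GC box letters GGGCGG, read on both strands, were in 56.9% of the set's windows, in 65.4% of the other eligible and in 35.9% of all 27025 windows in the table. The TATA letters TATAAA, also on both strands, were in 5.39%, 7.05% and 14.2%. The ratio of observed to expected CpG had medians of 0.644, 0.774 and 0.389 in the same order.

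The 12 genes with the highest floxed cpm included structural, signalling and blood genes. *Palm* (chr10:79793572-79820896) encodes paralemmin, a lipid-anchored protein of the inner face of the plasma membrane. *Palm* was counted at 122, 61.3 and 11.2 cpm in floxed replicates 1, 2 and 3 and at 0.933, 0.935 and 0.324 cpm in H3atKO replicates 1, 2 and 3. Floxed replicate 1 was 11 times replicate 3, and the log2 fold change was -5.52 ± 1.74 (SE). *Mst1r* had 67.8, 41.3 and 11.7 cpm in floxed pools and 0.829, 0.883 and 0.647 cpm in H3atKO pools. *Mst1r* (chr9:107906873-107920383) encodes RON, the receptor tyrosine kinase for macrophage-stimulating protein, and its fold change was -4.89 ± 1.23 (SE). Per kilobase of exon, *Palm* stood at 11.5 and *Mst1r* at 8.05 cpm in floxed pools on average.

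Adult alpha globin was the best covered product of the set per kilobase of exon, at 36.9 cpm for *Hba-a1* and 31.9 cpm for *Hba-a2*. Floxed pools held *Hba-a1* at 58.4, 29.3 and 2.20 cpm, and H3atKO pools at 0.259, 0.416 and 0.130 cpm. The level of *Hba-a2* was 37.4, 23.8 and 2.77 cpm in floxed and 0.104, 0.727 and 0 cpm in H3atKO pools. The floxed pools fell widely apart, with replicate 3 far below the others. The 2 copies are nearly identical, so the split of reads between them is uncertain, and they mark red blood cells left in the tissue. *Ltc4s* had 44.7, 13.7 and 3.30 cpm in floxed pools and 0.881, 0.623 and 0.389 cpm in H3atKO pools. *Ltc4s* encodes leukotriene C4 synthase, which makes the cysteinyl leukotrienes of mast cells and other leukocytes, and it was next per kilobase at 20.3 cpm.

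*Ptov1* and *Med25*, neighbours on chromosome 7, encode a cytoplasmic and nuclear regulator and a Mediator subunit with a related domain. Floxed pools held *Ptov1* at 38.4, 16.8 and 5.16 cpm, and H3atKO pools at 0.725, 0.883 and 0.130 cpm. The level of *Med25* was 33.5, 13.9 and 3.04 cpm in floxed and 0.725, 0.883 and 0.324 cpm in H3atKO pools. In both, floxed replicate 1 was the highest and replicate 3 the lowest. *Tppp3* (a tubulin-binding protein), *Zfp385a* (a zinc finger protein) and *Prr12* (a nuclear proline-rich protein) had the same order, with floxed means of 17.7, 17.6 and 15.3 cpm and H3atKO means of 0.454, 0.653 and 0.765 cpm.

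Hedgehog signalling had the largest share of any signalling list, 3 of its 12 eligible genes. Hedgehog ligands release Smoothened from inhibition, which lets Gli factors act in the nucleus, and the ligand gene *Dhh* and the factor gene *Gli2* are described here. *Dhh* had 5.37, 4.04 and 2.28 cpm in floxed pools and 0.777, 0.623 and 0.130 cpm in H3atKO pools. *Dhh* encodes Desert hedgehog, the ligand made by Schwann cells. Floxed pools held *Gli2* at 9.06, 12.5 and 2.47 cpm, and H3atKO pools at 0.415, 0.260 and 0.194 cpm. *Gli2* encodes the main activating Gli factor. In *Gli2* floxed replicate 3 lay far under the other floxed pools, close to the threshold of 2 cpm. The log2 fold changes were -2.57 ± 0.80 (SE) for *Dhh* and -3.98 ± 1.15 (SE) for *Gli2*. A limma voom fit over all 14967 tested genes (Benjamini-Hochberg adjusted p under 0.05) called 5 of the 15 tested genes of the list lower in H3atKO and 0 higher, beside 7.07% of all tested genes lower and 9.42% higher. At an unadjusted p under 0.05 there were 10 lower and 0 higher, and edgeR, DESeq2 and the fit with the replicate number as a block gave the same counts. Over all 14967 tested genes, 3506 were lower at that unadjusted p, 2749 by edgeR, 3465 by DESeq2 and 4290 (28.7%) with the block. With the GC correction described below limma called 1 lower, and with block and correction together 3, beside 3.11% and 9.7% of all tested genes. The median fold change over these 15 genes was -1.66, against -0.09 over all tested genes, and -0.46 with the correction.

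Wnt signalling had 2 of 37 eligible genes in the set. The level of *Wnt2* was 2.84, 4.47 and 17.5 cpm in floxed and 0.933, 0.520 and 0.777 cpm in H3atKO pools. *Wnt2*, a Wnt ligand that is also on the fibroblast marker list, was highest in floxed replicate 3, the reverse of most genes of the set. *Fzd2* had 5.43, 2.50 and 3.76 cpm in floxed pools and 0.725, 0.727 and 0.389 cpm in H3atKO pools. *Fzd2* encodes a Frizzled receptor. Limma called 2 of 50 tested Wnt genes lower and 0 higher (20 and 0 at an unadjusted p under 0.05), where edgeR called 19 and 0 and DESeq2 18 and 1, and the list's median was -1.05 (-0.18 with GC correction). The block raised these calls to 24 lower and 3 higher, and with GC correction as well they were 7 and 4. Those fits called 28.7% and 9.7% of all tested genes lower, and limma alone 7.07%. Over all 14967 tested genes, 3506 were lower at an unadjusted p under 0.05, 2749 by edgeR and 3465 by DESeq2. With GC correction and no block, limma called 3 Wnt genes lower, beside 3.11%. The BMP list had 1 of 40, *Bmp4* (chr14:46383520-46390669), whose product commits progenitors to the adipocyte lineage. Floxed pools held *Bmp4* at 7.26, 7.08 and 4.06 cpm, and H3atKO pools at 0.622, 0.468 and 0.518 cpm. Its pools were close together within each genotype, with 6.13 ± 1.8 cpm in floxed and 0.536 ± 0.0786 cpm in H3atKO pools (SD, n = 3), and its fold change was -2.98 ± 0.61 (SE). Limma called 7 of 49 genes of that list lower and 1 higher, beside 7.07% of all tested genes lower and 9.42% higher. The median of that list was -0.75 (-0.52 corrected). With GC correction 6 were called lower, beside 3.11%, and with correction and block together 12, beside 9.7%. With the block alone 23 were lower and 7 higher, beside the same 28.7% lower. None of 28 eligible Notch genes and none of 18 eligible guidance genes outside semaphorins and plexins met the rule. Beside 1.41% of all eligible genes, nothing is read from that.

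Growth factor receptors and ligands had 3 of 55 eligible genes, *Mst1r*, *Ntrk3* and *Erbb2*. The level of *Ntrk3* was 19.5, 21.9 and 6.95 cpm in floxed and 0.933, 0.364 and 0.389 cpm in H3atKO pools. *Ntrk3* (chr7:78175959-78738012) encodes TRKC, the receptor of neurotrophin-3, and with 43.6% G and C it was one of the AT-rich genes of the set. *Erbb2* had 16.9, 10.5 and 3.68 cpm in floxed pools and 0.829, 0.623 and 0.324 cpm in H3atKO pools. *Erbb2* encodes a partner of the other EGF receptors. Their fold changes were -4.28 ± 0.93 (SE) and -3.45 ± 0.98 (SE). Limma called 10 of 63 tested genes of the list lower and 2 higher, beside 7.07% of all tested genes lower and 9.42% higher. The list's median was -1.09 (-0.81 corrected). With GC correction 13 were called lower, beside 3.11%, and with correction and block together 21, beside 9.7%. With the block alone 35 were lower and 5 higher, beside 28.7% of all tested genes lower.

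**Figure D3:**
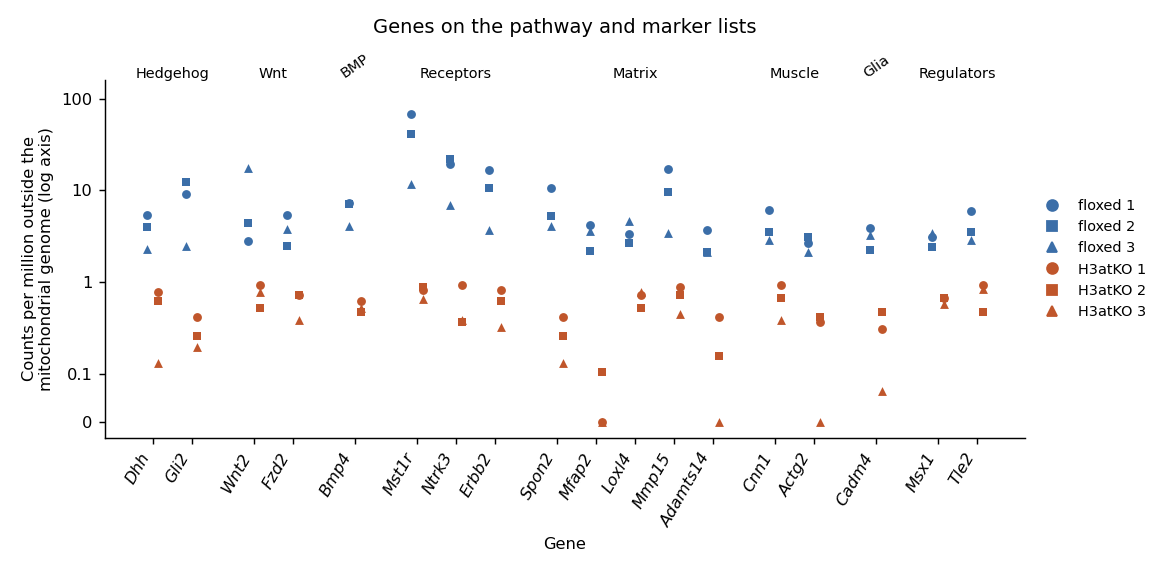
Level of the listed signalling, matrix, cell type and regulator genes in each pool (cpm outside the mitochondrial genome, log axis, zeros drawn at the foot). Blue marks are floxed and orange marks H3atKO pools, and the shape gives the replicate number. Floxed replicate 3 is the lowest floxed pool in *Gli2* and *Mst1r* and the highest in *Wnt2* and *Loxl4*.

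Among matrix genes, 2 of 85 eligible glycoproteins and proteoglycans and 3 of 54 processing enzymes and inhibitors met the rule. Floxed pools held *Spon2* at 10.6, 5.32 and 4.10 cpm, and H3atKO pools at 0.415, 0.260 and 0.130 cpm. *Spon2* encodes a secreted spondin, with a fold change of -4.03 ± 0.87 (SE). *Mfap2*, a microfibril component that binds fibrillin, was counted 136, 61 and 95 times in floxed and 0, 2 and 0 times in H3atKO pools, so that no fold change is given for it. *Loxl4* (a lysyl oxidase that crosslinks matrix fibres), *Mmp15* (a membrane-bound matrix metalloproteinase) and *Adamts14* (a procollagen N-proteinase) had floxed means of 3.53, 10.1 and 2.66 cpm and H3atKO means of 0.674, 0.687 and 0.190 cpm. Of the whole lists, limma called 39 of 97 glycoprotein genes lower and 1 higher, and 24 of 63 enzyme genes lower and 1 higher, with medians of -1.79 and -1.51 (-0.97 and -0.63 corrected). After GC correction 23 glycoprotein genes and 2 enzyme genes were called lower, and 36 and 16 with the replicate block as well. The block alone gave 67 and 35 lower. Over all tested genes limma called 7.07% lower, and 3.11% with the correction, 9.7% with both and 28.7% with the block alone. The level of *Itga11* was 14.6, 9.79 and 19 cpm in floxed and 0.829, 0.987 and 0.712 cpm in H3atKO pools. *Itga11* encodes a collagen-binding integrin subunit and was, unlike most of the set, highest in floxed replicate 3.

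The transcription and chromatin lists contributed shares near the 1.41% of all eligible genes. *Msx1* was the only one of 50 eligible homeobox genes, and *Tle2*, a Groucho corepressor, the only one of 83 eligible chromatin and co-regulator genes. *Msx1* had 3.11, 2.43 and 3.42 cpm in floxed pools and 0.674, 0.675 and 0.583 cpm in H3atKO pools. Floxed pools held *Tle2* at 5.98, 3.50 and 2.88 cpm, and H3atKO pools at 0.933, 0.468 and 0.842 cpm. Both were low in every pool, and the rule itself kept their genotypes apart. Of 328 eligible zinc finger genes 3 were in the set (*Zfp385a*, *Zfp775* and *Zfp580*). *Klf14*, a Krüppel-like factor of adipose tissue that is also imprinted, was not on any list. The level of *Klf14* was 15, 9.47 and 2.24 cpm in floxed and 0.0518, 0 and 0.324 cpm in H3atKO pools. Its H3atKO counts were 1, 0 and 5.

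Channels and transporters supplied 12 genes. The voltage-gated and TRP channel family had 5 of 49 eligible genes, among them *Trpv4* (a calcium channel opened by stretch and warmth), *Clcn2* (a chloride channel) and *Scn8a* (a sodium channel). *Trpv4* had 23.4, 8.90 and 4.33 cpm in floxed pools and 0.674, 0.623 and 0.259 cpm in H3atKO pools. Limma called 0 of 91 tested channel genes lower, these 5 included, and 3 higher, beside 7.07% and 9.42% of all tested genes. With the replicate block it called 28 lower and 10 higher, beside 28.7% of all tested genes lower. The 5 were among the 28, as the block called all 159 genes of the set lower. At an unadjusted p under 0.05 there were 24 lower and 7 higher, and edgeR called 14 and 4 and DESeq2 24 and 8. Over all 14967 tested genes, 3506 were lower at that unadjusted p, 2749 by edgeR and 3465 by DESeq2. Solute carriers had 7 of 201 (*Slc2a8*, *Slc6a12*, *Slc9b2*, *Slc41a3*, *Slc27a3*, *Slc26a10* and *Slc6a7*), with *Slc2a8*, a glucose transporter of internal membranes, at 19.6, 11.2 and 2.62 cpm in floxed and 0.518, 0.572 and 0.324 cpm in H3atKO pools.

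None of the 22 eligible genes on the lipogenesis list, the 22 on the fatty acid oxidation and thermogenesis list or the 22 listed mature adipocyte markers was in the set. These lists do not hold every gene of their processes, and *Cpt1c* and *Slc27a3* of the set were not on them. The set also held no eligible endothelial (29), macrophage (17), skeletal muscle (28) or imprinted (20) gene of the lists, no kinesin or myosin (42), no adhesion G protein-coupled receptor (13) and no mitochondrial ribosomal protein gene (76). Of all eligible genes only 1.41% were in the set, and 0.0574% of those with a lowest floxed level of 8 cpm or more, so nothing is read from these absences. *Dchs1* was the only one of 25 eligible cadherins. Limma called 10 of 23 lipogenesis genes and 13 of 25 oxidation genes higher in H3atKO, and 1 of each lower. With the block it called 13 and 16 higher, and 4 and 6 lower. Over all tested genes limma called 9.42% higher and 7.07% lower, and with the block 3717 genes higher and 4290 lower.

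Several genes outside the lists had a wide space between genotypes. Floxed pools held *Krt36* at 3.20, 2.93 and 2.81 cpm, and H3atKO pools at 0.0518, 0.208 and 0.130 cpm. *Krt36* encodes a hair keratin, and its floxed pools differed by little. The level of *Dmkn* was 9.80, 9.72 and 12.3 cpm in floxed and 0.881, 0.416 and 0.324 cpm in H3atKO pools. *Dmkn* encodes dermokine, a secreted epidermal protein, and its floxed pools were also close. The 29 epithelial markers of skin and mammary gland summed to 20.3 to 32.9 cpm in floxed and 9.61 to 48.1 cpm in H3atKO pools, with *Krt15*, *Krt17* and *Cldn3* at 0 in all H3atKO pools, *Csn2* at 0 in all floxed pools and *Wap* at 0 in all 6 pools, and their part in these levels was not tested. *Prtn3* had 17.7, 21.3 and 5.39 cpm in floxed pools and 0.207, 0.312 and 0.0648 cpm in H3atKO pools. *Prtn3*, the neutrophil protease proteinase 3, had the largest ratio of lowest floxed to highest H3atKO level, 17.3. Floxed pools held *Ssc5d* at 17, 10.2 and 17.7 cpm, and H3atKO pools at 0.985, 0.987 and 0.389 cpm. *Ssc5d* encodes a soluble scavenger receptor. *Mrgprf*, an orphan receptor, was at 3.39, 2.43 and 2.66 cpm in floxed and 0.207, 0.156 and 0 cpm in H3atKO pools, and *Chrna5*, a nicotinic receptor subunit, was counted 121, 219 and 60 times in floxed pools but 1, 0 and 2 times in H3atKO pools.

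Summed markers of 5 other cell types of the tissue were lower in every H3atKO than in every floxed pool. The summed level of 34 fibroblast and progenitor markers was 5603 to 13581 cpm in floxed and 2510 to 2917 cpm in H3atKO pools, and limma called 14 lower and 0 higher (21 and 1 at an unadjusted p under 0.05, 18 and 1 by edgeR, 19 and 1 by DESeq2). Ranges for 30 endothelial markers were 2235 to 3505 against 1106 to 1202 cpm, and 8 were called lower. Smooth muscle and pericyte markers (20 genes, 7 lower) summed to 1506 to 4447 against 967 to 1223 cpm, and Schwann cell and myelin markers (23 genes, 4 lower) to 561 to 1036 against 276 to 316 cpm. Macrophage markers (18 genes, 5 lower) gave 1167 to 4901 against 567 to 1081 cpm. These adjusted limma calls stand beside 7.07% of all tested genes called lower. Over all 14967 tested genes, 3506 were lower at an unadjusted p under 0.05, 2749 by edgeR and 3465 by DESeq2. With GC correction the lists had 10 fibroblast, 3 endothelial, 6 smooth muscle, 2 Schwann cell and 1 macrophage genes called lower, beside 3.11%. With the replicate block in place of the correction they had 23, 20, 14, 13 and 7, beside 28.7% of all tested genes. In none of these 5 lists was a gene at 0 in all H3atKO pools. On TMM-scaled libraries the ranges of smooth muscle (964 to 3196 against 768 to 1199 cpm) and macrophage markers (784 to 3136 against 556 to 928 cpm) overlapped, and those of the other 3 lists did not. The 22 mature adipocyte markers overlapped in sum, at 65776 to 102404 against 64309 to 121201 cpm, with *Lpl* the most abundant. Their median fold change was -0.92 (-0.37 with GC correction), and limma called 2 lower and 1 higher (9 and 2 at an unadjusted p under 0.05, 4 and 1 by edgeR, 8 and 2 by DESeq2, 10 and 2 with the block). Sums of skeletal muscle (1710 to 7886 against 27.3 to 7976 cpm), lymphocyte (38.0 to 464 against 41.3 to 1495 cpm) and mesothelial markers (11.2 to 17.6 against 9.82 to 21.0 cpm) overlapped too. The summed level of the 17 genes on the liver plasma protein list went the other way. It was 4267 to 6888 cpm in floxed and 8107 to 12581 cpm in H3atKO pools. The most abundant gene of this list was *Cyp2e1*. Its single genes did not rise as a group, as limma called 1 of the 7 tested lower and 1 higher. Their median fold change was -0.85 (-0.32 with GC correction).

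The set held 5 entries from these lists, *Cnn1* and *Actg2* of smooth muscle, *Dhh* and *Cadm4* of Schwann cells and *Wnt2* of fibroblasts. The level of *Cnn1* was 6.16, 3.54 and 2.85 cpm in floxed and 0.933, 0.675 and 0.389 cpm in H3atKO pools. *Actg2* had 2.66, 3.07 and 2.13 cpm in floxed pools and 0.363, 0.416 and 0 cpm in H3atKO pools. Calponin (*Cnn1*) and gamma-2 smooth muscle actin (*Actg2*) both belong to the contractile apparatus. Floxed pools held *Cadm4* at 3.94, 2.25 and 3.23 cpm, and H3atKO pools at 0.311, 0.468 and 0.0648 cpm. *Cadm4* encodes an adhesion molecule between glia and axon. The part of these markers in the levels of the other genes of the set was not tested.

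**Figure D4:**
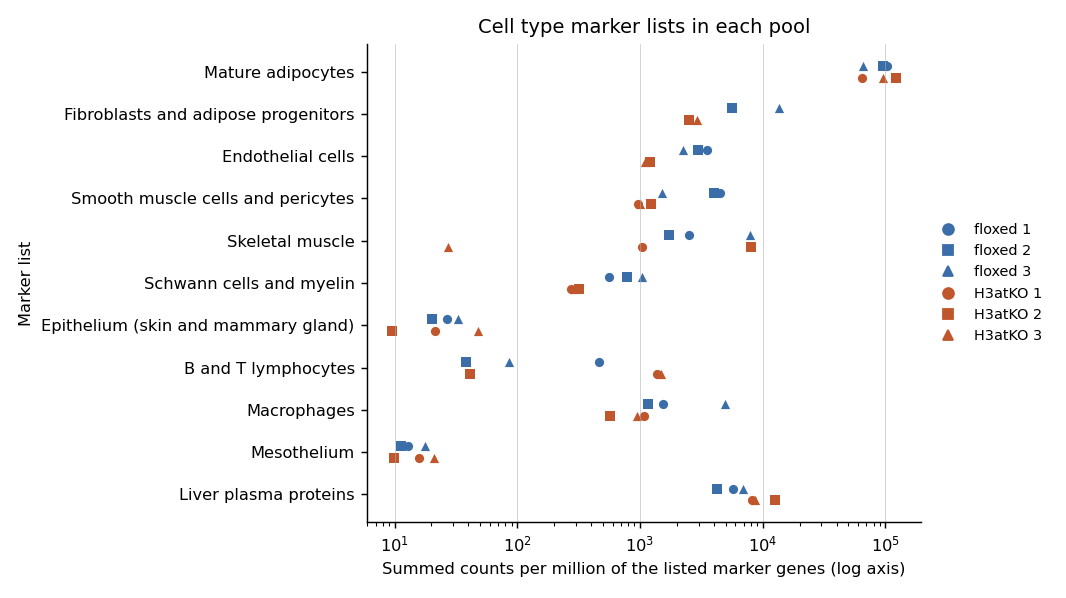
Summed level of the marker genes of each cell type list in each pool (cpm outside the mitochondrial genome, log axis). Blue marks are floxed and orange marks H3atKO pools, with the shape for the replicate number. Fibroblast markers summed to 5603 to 13581 cpm in floxed and 2510 to 2917 cpm in H3atKO pools, while mature adipocyte markers overlapped.

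In the limma fit every one of the 159 genes had a negative fold change, between -6.06 and -1.62 on the log2 scale with a median of -3.19, while the median of all tested genes was -0.09. Scaling by library sizes alone moved these medians to -4.06 and -0.94. At an adjusted p under 0.05 limma called 74 of them lower, against 7.07% of all tested genes. Without floxed replicate 3 it called 155, and without floxed replicates 1 and 2 or H3atKO replicates 1, 2 and 3, each left out alone, it called 3, 0, 0, 4 and 0. With the replicate number as a block 159 were called lower, against 28.7% of all tested genes. Because the rule used the same contrast, nothing is read from these counts. P-values weigh the genotype difference only against the spread between these pools, each a mix of 2/3 mice.

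Each pool was then corrected for the trend of its levels along GC content. The rule picked genes for separate genotypes on the same libraries, so the shares of the set below are set high by the choice of genes and nothing is read from their distance to other genes. The median fold change of the 159 genes moved to -1.53 (range -5.80 to 1.25) and that of all tested genes to 0.03. The fold change stayed negative in 151 genes and under -1 in 115 (72.3%), against 11.8% of all eligible genes. Every floxed pool was still above every H3atKO pool in 123 genes, against 20.6% of eligible genes, and the pools overlapped in 36. Limma called 21 lower after correction, against 3.11% of all tested genes, and 54 with correction and block together, against 9.7%.

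**Figure D5:**
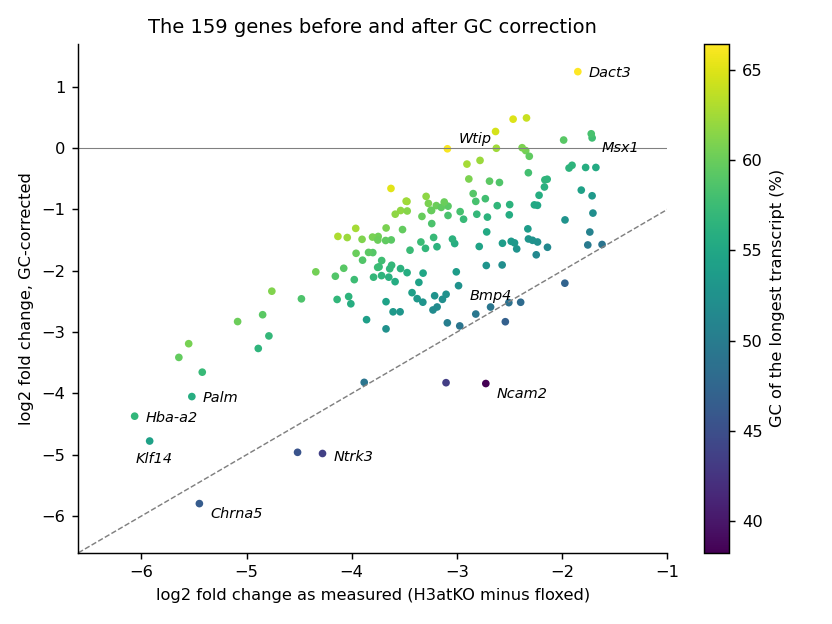
Log2 fold change (H3atKO minus floxed) of each of the 159 genes as measured and after GC correction, colored by the GC content of the longest transcript. The dashed line marks equal values and the grey line 0 after correction. GC-rich genes lie farthest above the dashed line, with *Dact3* at 1.25 after correction, while AT-rich genes such as *Ncam2* and *Ntrk3* lie under it. The correction itself sets the direction of these moves.

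In the 5 most AT-rich genes of the set the difference grew with correction. The fold change of eligible genes fell along GC content, so the correction itself moves AT-rich genes down and GC-rich genes up. Nothing is read from the direction of these moves. Corrected levels of *Ncam2* were 6.69, 3.92 and 4.93 cpm in floxed and 0.172, 0.464 and 0.540 cpm in H3atKO pools. *Ncam2*, at 38.2% the lowest GC content of the set, had a corrected fold change of -3.84 ± 0.54 (SE) against -2.73 ± 0.71 (SE) before. After correction *Ntrk3* stood at 28, 24.8 and 5.84 cpm in floxed and 0.814, 0.384 and 0.320 cpm in H3atKO pools. *Ntrk3* went to -4.98 ± 1.11 (SE). Corrected levels of *Slc9b2* were 8.41, 6.82 and 3.64 cpm in floxed and 0.585, 0.437 and 0.211 cpm in H3atKO pools. *Slc9b2*, a sodium and proton exchanger with 43.4% G and C, went from -3.10 ± 0.59 (SE) to -3.83 ± 0.62 (SE). *Adam3*, a sperm surface protein gene, was at -4.96 after correction but was no longer called lower. *Chrna5* had the most negative value, -5.80, but rested on 3 counts over the H3atKO pools.

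Genotypes also stayed separate in *Palm*, *Mst1r* and *Bmp4*, with 55.9, 56.6 and 52.5% G and C. After correction *Palm* stood at 43.1, 30.3 and 8.74 cpm in floxed and 1.25, 1.78 and 0.948 cpm in H3atKO pools. *Palm* had -4.05 ± 1.18 (SE) after correction, and floxed replicate 3 stayed the lowest floxed pool. Corrected levels of *Mst1r* were 21.3, 19.3 and 9.21 cpm in floxed and 1.14, 1.76 and 2.06 cpm in H3atKO pools. *Mst1r* had -3.27 ± 0.66 (SE). After correction *Bmp4* stood at 4.31, 4.55 and 3.18 cpm in floxed and 0.722, 0.726 and 1.01 cpm in H3atKO pools. In *Bmp4* the fold change was -2.24 ± 0.40 (SE), with the 3 pools of each genotype still close. These Hedgehog genes had -1.55 ± 0.51 (SE) for *Dhh* and -2.14 ± 0.74 (SE) for *Gli2*.

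In the 5 most GC-rich genes of the set the genotypes overlapped after correction. The correction itself moves the fold change of such genes up, so nothing is read from the direction of the move. Corrected levels of *Dact3* were 0.248, 0.786 and 1.74 cpm in floxed and 1.65, 0.859 and 2.72 cpm in H3atKO pools. *Dact3*, with 66.4% G and C, had a corrected fold change of 1.25 ± 1.00 (SE), above 0. After correction *Wtip* stood at 0.950, 2.71 and 3.00 cpm in floxed and 1.53, 2.14 and 1.93 cpm in H3atKO pools. *Wtip*, a LIM-domain protein gene with 66.2%, had -0.01 ± 0.74 (SE). Corrected levels of *Hic1* were 0.930, 1.35 and 2.58 cpm in floxed and 1.36, 2.36 and 1.46 cpm in H3atKO pools. *Hic1*, a transcriptional repressor gene with 64.7%, had 0.27 ± 0.62 (SE). *Zfp580* and *Scarf2* had 0.47 ± 1.16 (SE) and -0.66 ± 0.66 (SE). After correction *Msx1* stood at 0.763, 1.00 and 2.70 cpm in floxed and 0.998, 1.47 and 2.18 cpm in H3atKO pools. *Msx1* and *Tle2*, the set's only genes from the homeobox and co-regulator lists, overlapped as well, at 0.24 ± 0.70 (SE) and 0.13 ± 0.53 (SE). With GC-corrected cpm in the rule, 23 genes would have met it, 20 of them among the 159.

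Some values rest on shared sequence. Exons of 13 genes overlapped another gene on the same strand, the most in *Naa80* (60.9% of its exon length) and *Sssca1* (55.4%), and those of 51 genes overlapped one on the opposite strand, by 52.5% in *Chaf1a*. The libraries were stranded, and the strand setting of the counting is not given in the sources used here. *Rpl29*, the only one of 71 eligible cytosolic ribosomal protein genes in the set, has many near-identical pseudogenes, and its 29.4, 8.83 and 3.53 cpm in floxed and 0.518, 0.260 and 0.259 cpm in H3atKO pools are uncertain.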

How the data were processed

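RNA-seq was done on 6 pools of IngWAT RNA, 3 per genotype. Per the paper and the labels, libraries were poly(A)-selected and stranded, and the authors used cutadapt 1.3 for trimming, STAR 2.4.2a for alignment to GRCm38 and HTSeq 0.6.1 for counting. They deposited raw counts per gene. Counting tallies at the foot of each file were set apart. No sample column was left unused (0).

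Of 46517 gene identifiers, 46005 matched GENCODE M21, which gave biotype, position and GC content. The low-in-H3atKO genes were found on cpm over counts outside the mitochondrial genome. Fold changes came from limma 3.58.1 (voom, TMM factors of edgeR 4.0.16, R 4.3.3) on the genes that reached 1 cpm in any 1 sample, with Benjamini-Hochberg adjustment. DESeq2 1.42.0 and edgeR's quasi-likelihood test were alternatives, and the scripts were tested on simulated data. GC correction subtracted a loess curve (span 0.3) of each pool's deviation from the gene mean. Depth ran from 23865507 to 35200685 counts per pool, which sets the precision of levels near 1 cpm.

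The genes and lists were chosen with earlier results of these data known. Named genes are the 12 with the highest floxed mean, the 10 with the widest ratio of lowest floxed to highest H3atKO level, the 5 at each end of GC content, the genes on signalling, matrix, transcription and cell type lists, the 10 with the most negative corrected fold change, and the 4 nearest each threshold on either side. Others were named after their values were seen, as members of a family, a neighbour pair or an overlap. Deviations from the genotype means correlated between pools of the same replicate number (r = 0.513, 0.388 and 0.297 over 14967 genes), so the number was also fitted as a block. The labels do not say what the number shares. Some genes are not reported here.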

Additional observations from a re-analysis of the deposited data

How the results depend on the processing

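The number of genes that met the rule was 159 and depended on the scale. It was 240 with all counts as denominator, 78 on TMM-scaled libraries, 81 with DESeq2 size factors and 23 with GC-corrected cpm, of which 130, 61, 81 and 20 were among the 159. With H3atKO under 0.5 cpm it was 27, and with floxed at 3 cpm or more as well it was 5. Leaving out 1 pool gave 164 to 386, the highest without floxed replicate 3, and 348 without H3atKO replicate 1. Median GC content of the set was between 53.3 and 57.3% in all of these. Limma called 74 of the 159 lower, edgeR 153, DESeq2 159, library sizes alone 158, the fit with no filter 123, a minimum of 10 counts in 3 samples 138, the replicate block 159 and the GC correction 21. Leaving out 1 pool gave 0 to 155 calls, with 155 without floxed replicate 3 and 4 or fewer without any other pool. Over all tested genes, 1058 were called lower by limma, 3465 by DESeq2, 2749 by edgeR, 5666 with library sizes alone, 1679 with the minimum of 10 counts, 464 with GC correction and 4290 with the replicate block, and leaving out 1 pool gave 0 to 3828 (90, 0 and 3828 without floxed replicates 1, 2 and 3, and 47, 139 and 20 without H3atKO replicates 1, 2 and 3). Where limma called 0 genes, 2407 were lower at an unadjusted p under 0.05. The median fold change of the 159 was -1.53 with GC correction and -1.51 with the replicate block and GC correction. With GC correction 8 of the 159 had a positive fold change, and 10 with the block as well. Among the 52 named genes these were *Tle2* (0.13, and 0.18 with the block), *Hic1* (0.27 and 0.46), *Msx1* (0.24 and 0.30), *Zfp580* (0.47 and 1.06), *Dact3* (1.25 and 1.49) and *Wtip* (0.13 with the block). Of the other fold changes of the 52 named genes across alternatives, 490 kept direction and call, 204 passed the threshold only in the alternative and 127 only in the main fit. The cause was not tested.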

Other observations

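Of genes with another biotype than protein-coding, 12 met both thresholds. They include *Smkr-ps*, a long non-coding RNA by its annotation, at 5.59, 6.54 and 7.67 cpm in floxed and 0.104, 0.520 and 0.648 cpm in H3atKO pools, and the antisense gene *Chn1os3*.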
